A study of Homo sapiens with 18 samples.

Results

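The VEGF, PDGF and endothelin angiogenic factors were 10 genes for secreted ligands, VEGFA, VEGFB, VEGFC, PGF, PDGFA, PDGFB, PDGFC, PDGFD, EDN1 and FGF2, taken by symbol from the 21411 genes of the count and CPM tables, and all 10 were found there. They were followed in 18 mRNA libraries from 3D Matrigel spheroids of MDA-MB-231, an established triple-negative breast cancer cell line, after 7 days of culture. The 6 groups had 3 libraries each. Jag1WT is the parental line. Jag1KO cells are pooled clones of that line, each grown from a single cell, whose Notch ligand gene JAG1 was edited with Cas9 in exon 2. Jag1KO + rescue cells are Jag1KO cells with a pcDNA3.1 vector for Jagged1 cDNA, and Jag1KO + ctrl cells carry the empty vector, both kept under G418. Jag1WT cells received a nontargeting siRNA (siCtrl) or JAG1 siRNAs (siJag1) shortly before they were seeded. The 3 knockout-derived groups share the same pooled clones, so that the edit and the origin from clones cannot be told apart in Jag1WT against Jag1KO, and the cultures held MDA-MB-231 cells only. The labels name the replicates as biological without saying how they were separated, so the p values measure the spread between these cultures.

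VEGF ligands are dimeric growth factors that bind receptor tyrosine kinases on endothelial cells. VEGFA drives the sprouting and permeability of blood vessels and is a classic target of hypoxia-inducible factors, VEGFC drives lymphatic growth, and VEGFB and PGF bind VEGFR1 without binding VEGFR2. PDGF ligands act on mural cells and fibroblasts through PDGFRA and PDGFRB, where PDGFA and PDGFB are secreted in active form and PDGFC and PDGFD have to be cut by proteases first. EDN1 encodes endothelin-1, a vasoconstrictor peptide that acts on the receptors EDNRA and EDNRB, and FGF2 is a growth factor for endothelial cells that leaves the cell without a signal peptide. Breast cancer cells are a known source of several of these ligands, while most of the receptors belong to the vessel wall.

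Between 10330581 and 18327890 reads per library were counted on genes. JAG1 mRNA lay between 433 and 657 CPM in the 9 libraries of Jag1WT, Jag1KO + rescue and siCtrl, and between 110 and 205 CPM in the 9 libraries of Jag1KO, Jag1KO + ctrl and siJag1, so that the groups of each pair did not overlap. CPM are the authors' read counts scaled by TMM to a common library size, without regard to gene length. For JAG1 the knockout pair gave a log2 fold change of 1.71 (adjusted p = 0.0162, edgeR) and the rescue pair one of 2.22 (adjusted p = 0.0229, edgeR). In siCtrl against siJag1 it was 1.68 (adjusted p = 0.111, edgeR), and a fit blocked by replicate gave an adjusted p of 0.0179 (edgeR). VIM, CD44, EGFR and KRT18, which mark this line, were above 100 CPM in all libraries, and ESR1 had 0 to 2 reads. Together ESR1 and PGR, the markers that should be absent, summed to 1.91 CPM in Jag1KO + rescue replicate 1. In every other library this sum was at most 0.300 CPM. Of 7 endothelial markers, 2, 3 and 3 were above 1 CPM in at least 3 libraries of the knockout, rescue and siRNA pair. PECAM1 was among these in the rescue pair. CDH5 and CLDN5 had at most 1 read in any library, while ESAM reached a median of 229 CPM. The level of 10 cell cycle genes varied within groups and was lower on average with more JAG1. Their mean log2(CPM + 1) lay between 4.15 and 5.73 in the 9 libraries with more JAG1 and between 4.29 and 7.05 in the 9 libraries with less, where it was above 6 in Jag1KO replicates 2 and 3, in Jag1KO + ctrl replicates 1 and 2 and in siJag1 replicate 2.

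The ligands covered more than 3 orders of magnitude in RPKM, the CPM divided by the length of the gene in kilobases, which allows genes to be compared with each other. VEGFA was the most abundant at a median of 322 RPKM over the 18 libraries and made up between 45.3% and 74.8% of the summed RPKM of the 10 ligands. VEGFC followed at 54.5 RPKM, VEGFB at 33.1, PDGFC at 24.3, EDN1 at 9.93, PDGFA at 6.00, PGF at 2.68, PDGFD at 0.881 and PDGFB at 0.183 RPKM. FGF2 had a median of 0. VEGFA lay above VEGFC and VEGFC above VEGFB in all 18 libraries, with ranges that did not overlap. The ranges of VEGFB and PDGFC overlapped, as did those of PDGFC and EDN1, of EDN1 and PDGFA, and of PDGFA and PGF. Within single libraries the first of these genes lay above the second in 16, 17, 15 and 16 of 18, so the order of these neighbours was not the same in every culture. Among the receptors, the VEGF co-receptor NRP1 had a median of 194 RPKM and FGFR1 of 22.7 RPKM. KDR, the gene of VEGFR2, had 1.47 RPKM. FLT1 and FLT4, for VEGFR1 and VEGFR3, had 0 to 4 reads per library, PDGFRA had 0 to 7 and PDGFRB 2 to 20, so the spheroids made most of these ligands with few transcripts of the tyrosine kinase receptors that bind them.

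**Figure D1:**
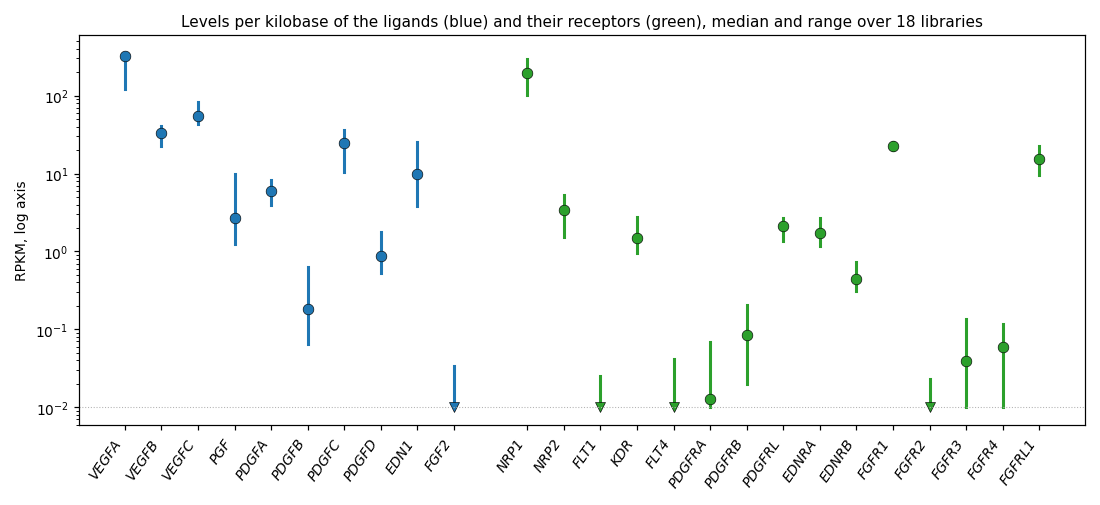
Median (marker) and range (bar) of RPKM over the 18 libraries on a log axis, for the 10 ligands in blue and 15 VEGF, PDGF, endothelin and FGF receptors in green. Values under 0.01 RPKM are drawn at 0.01 and medians under it as triangles. VEGFA (322 RPKM) and NRP1 (194 RPKM) stand highest, and FGF2, FLT1, FLT4 and FGFR2 lie at the bottom.

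VEGFA (chr6:43770184-43786487, plus strand, hg38) was the one ligand whose groups were apart without overlap in each of the 3 designs, always with the higher level beside more JAG1, although the test on all libraries of a pair called it in none. It was at 1243, 1307 and 1299 CPM in Jag1WT replicates 1 to 3 and at 1178, 1038 and 999 CPM in Jag1KO. In Jag1KO + rescue it was at 1232, 1253 and 1261 CPM, and in Jag1KO + ctrl at 769, 459 and 1198 CPM. In siCtrl it was at 1232, 1329 and 1335 CPM, and in siJag1 at 1174, 632 and 1150 CPM. All 9 libraries with more JAG1 thus lay in a narrow band from 1232 to 1335 CPM, and all 9 libraries with less JAG1 lay below it, 6 of them between 999 and 1198 CPM and Jag1KO + ctrl replicates 1 and 2 and siJag1 replicate 2 between 459 and 769 CPM. Of the exon bases of VEGFA, 188 (1.30%) overlap a long noncoding RNA on the opposite strand. Of the 12553 genes tested in all 3 pairs, 36 (0.287%) had groups that did not overlap in each pair with the JAG1-rich group higher. The log2 fold change was 0.26 (95% interval −0.0018 to 0.51, adjusted p = 0.567, edgeR) in Jag1WT against Jag1KO, 0.62 (−0.12 to 1.35, adjusted p = 0.215, edgeR) with the rescue and 0.41 (−0.11 to 0.92, adjusted p = 0.970, edgeR) with the siRNA. In the fit of the 3 designs together it was 0.42 (0.12 to 0.72, unadjusted p = 0.00865, adjusted p = 0.156, edgeR).

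The size of the VEGFA difference, in contrast to its direction, rested on few libraries. Without Jag1KO + ctrl replicate 3, the log2 fold change of the rescue pair was 1.02 (adjusted p = 0.0142, edgeR), and leaving out 1 library at a time gave values between 0.33 and 1.02. The 3 libraries with the lowest VEGFA were also the 3 with the highest level of the cell cycle list (6.54, 7.05 and 6.83 against at most 6.39 elsewhere) and the 3 with the lowest level of 10 targets of the stress factor ATF4 (5.80, 5.39 and 6.40 against at least 6.91 elsewhere). ATF4 is a known inducer of VEGFA. The level of 20 hypoxia targets, in contrast, was highest in Jag1KO + ctrl replicates 1 and 2 (7.84 and 7.36), which had little VEGFA. Over the 18 libraries, the Spearman correlation of VEGFA was 0.843 with a list of 6 Notch targets and 0.558 with the ATF4 list. It was −0.513 with the cell cycle list and −0.046 with the hypoxia list. The part of these programs in the VEGFA difference was not tested.

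**Figure D2:**
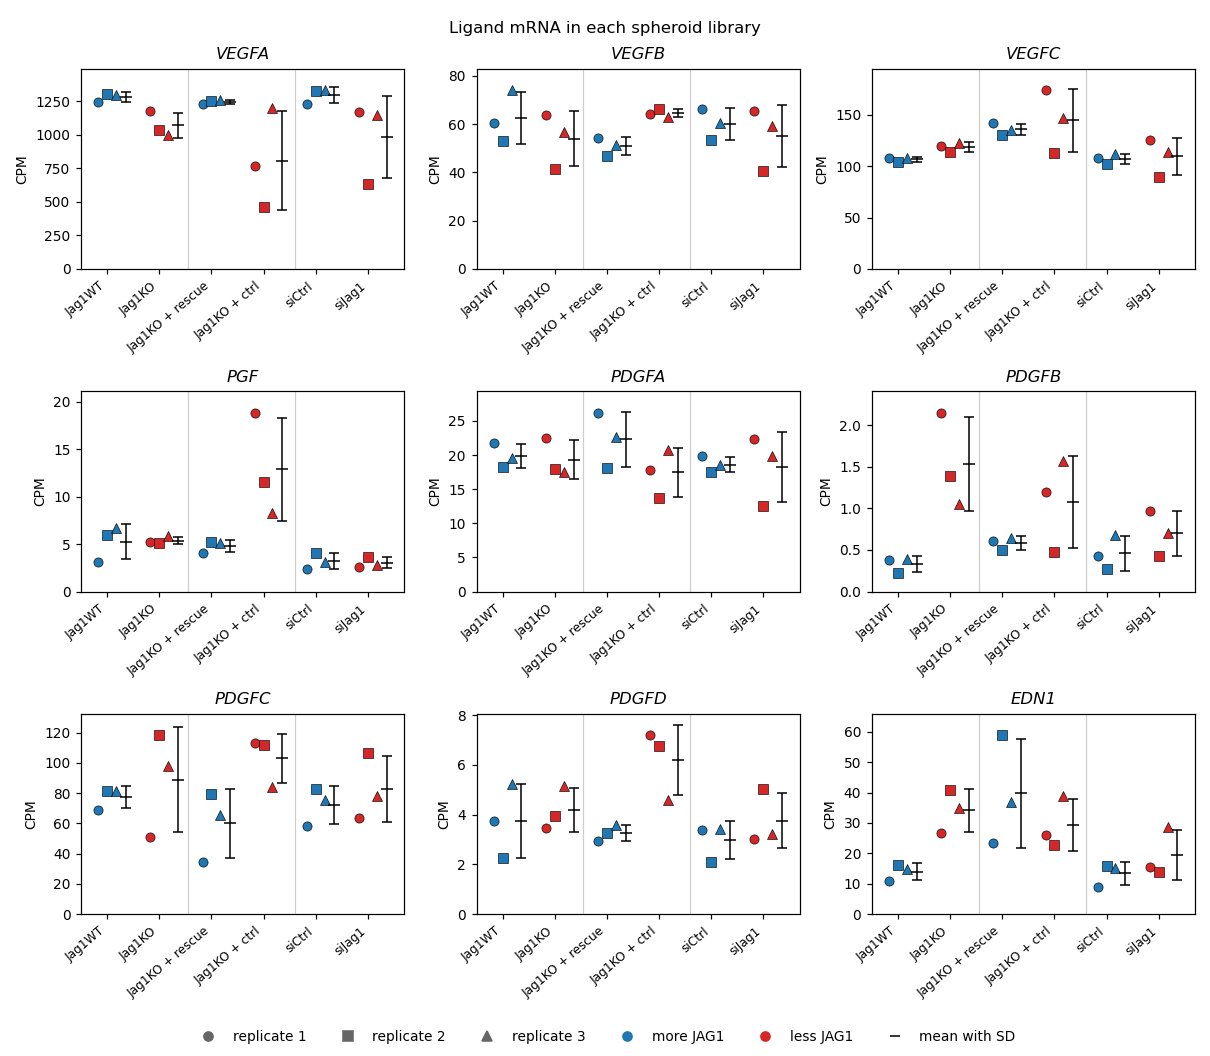
CPM of 9 ligands in each library, by group, with the replicate as the marker shape, groups with more JAG1 in blue and with less in red, and the mean with its SD (n = 3) in black. VEGFA lies between 1232 and 1335 CPM in all blue libraries and below that in all red ones, EDN1 stands high in the 3 knockout-derived groups, and PGF stands high in Jag1KO + ctrl.

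VEGFB and VEGFC varied little. VEGFB (chr11:64234584-64239264, plus strand) ranged from 40.8 to 74.2 CPM. Its mean and SD (n = 3 here and below) were 62.5 ± 10.7 CPM in Jag1WT, 54.0 ± 11.4 CPM in Jag1KO, 51.0 ± 3.68 CPM in Jag1KO + rescue and 64.6 ± 1.60 CPM in Jag1KO + ctrl, and 60.0 ± 6.50 CPM in siCtrl and 55.1 ± 12.8 CPM in siJag1. The JAG1-rich group was therefore the higher of the knockout and siRNA pairs and the lower of the rescue pair, where the groups did not overlap (log2 fold change −0.35, unadjusted p = 0.0221, adjusted p = 0.123, edgeR). VEGFC (chr4:176683538-176792922, minus strand) was at 107 ± 2.44 CPM in Jag1WT, 119 ± 4.55 CPM in Jag1KO, 136 ± 5.47 CPM in Jag1KO + rescue, 145 ± 30.6 CPM in Jag1KO + ctrl, 107 ± 4.93 CPM in siCtrl and 110 ± 18.2 CPM in siJag1. The parental-derived cultures lay between 89.8 and 125 CPM and the knockout-derived ones between 113 and 174 CPM, with or without the rescue plasmid. In Jag1WT against Jag1KO the log2 fold change of VEGFC was −0.16 (95% interval −0.36 to 0.048, adjusted p = 0.659, edgeR), with groups that did not overlap.

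PGF, for placental growth factor (chr14:74941834-74955626, minus strand), had one group that stood apart. It was at 18.9, 11.6 and 8.24 CPM in Jag1KO + ctrl replicates 1 to 3, and at 2.40 to 6.65 CPM in the other 15 libraries. In Jag1KO + rescue it was at 4.02, 5.23 and 5.16 CPM. These groups did not overlap, and the log2 fold change of Jag1KO + rescue against Jag1KO + ctrl was −1.43 (standard error 0.322, adjusted p = 0.104, edgeR), which missed the call. PGF was called in this pair by DESeq2 (adjusted p = 0.00316), in a fit of all 18 libraries (adjusted p = 0.00703, edgeR) and without Jag1KO + ctrl replicate 3 (log2 fold change −1.66, adjusted p = 0.00629, edgeR). In Jag1WT against Jag1KO, at 3.16, 5.94 and 6.65 CPM against 5.22, 5.10 and 5.83 CPM, the log2 fold change was −0.039 (95% interval −0.72 to 0.64). In siCtrl against siJag1, at 3.21 ± 0.859 and 3.03 ± 0.571 CPM, it was 0.088 (−0.54 to 0.72). Jag1KO + ctrl also lay above plain Jag1KO, where JAG1 was not changed on purpose, with a log2 fold change of 1.25 (adjusted p = 0.757, edgeR), and this was called without Jag1KO + ctrl replicate 3 (adjusted p = 0.0439, edgeR). Beside these values, the mean log2(CPM + 1) of 20 hypoxia targets was 7.84, 7.36 and 6.97 in Jag1KO + ctrl replicates 1 to 3 and at most 7.01 in the other libraries, so the 2 libraries with the most PGF were also highest in this list. The part of hypoxia in the PGF values was not tested.

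Of the 4 PDGF genes, 0 were called in a pair, and PDGFB passed the filter in the knockout pair alone. Of all genes 0.714%, 0.00778% and 0.0157% were called in the knockout, rescue and siRNA pair. PDGFC and PDGFD had negative log2 fold changes in all 3 pairs, and those of PDGFA were positive. Over the 18 libraries, the Spearman correlation with the cell cycle list was −0.911 for PDGFA, 0.856 for PDGFC and 0.344 for PDGFD. The part of growth state in these signs was not tested. PDGFA (chr7:497258-520296, minus strand) ranged from 12.5 to 26.2 CPM, and its log2 fold changes were 0.032, 0.35 and 0.038 in the order knockout, rescue and siRNA pair, with adjusted p of 0.967, 0.288 and 0.993 (edgeR). PDGFC (chr4:156760454-156971799, minus strand) was at 34.7, 79.5 and 65.7 CPM in Jag1KO + rescue and at 113, 112 and 84.1 CPM in Jag1KO + ctrl, without overlap (log2 fold change −0.78, unadjusted p = 0.0283, adjusted p = 0.132, edgeR). It was at 77.2 ± 7.21 CPM in Jag1WT, 89.0 ± 34.7 CPM in Jag1KO, 72.3 ± 12.5 CPM in siCtrl and 82.8 ± 21.7 CPM in siJag1, with log2 fold changes of −0.21 in the knockout pair and −0.19 in the siRNA pair (adjusted p = 0.871 and 0.970, edgeR). Within Jag1KO it was at 50.7, 118 and 97.9 CPM, and replicate 1, the lowest, was also the Jag1KO library with the lowest cell cycle level (4.29 against 6.15 and 6.39). PDGFD (chr11:103907189-104164379, minus strand) was at 2.93, 3.25 and 3.58 CPM in Jag1KO + rescue and at 7.19, 6.77 and 4.57 CPM in Jag1KO + ctrl. Its log2 fold change there was −0.93 (standard error 0.259, adjusted p = 0.105, edgeR), and like PGF it was called by DESeq2 (adjusted p = 0.0341), in the fit of all 18 libraries (adjusted p = 0.0346, edgeR) and without Jag1KO + ctrl replicate 3 (adjusted p = 0.0125, edgeR). In the knockout pair the log2 fold change of PDGFD was −0.15 (95% interval −0.92 to 0.61) and in the siRNA pair −0.34 (−1.05 to 0.38).

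PDGFB (chr22:39223359-39244982, minus strand), whose product recruits pericytes, was near the limit of detection, with 3 to 33 reads per library. It had 6, 3 and 6 reads (0.379, 0.226 and 0.391 CPM) in Jag1WT and 33, 18 and 11 reads (2.15, 1.39 and 1.05 CPM) in Jag1KO. It passed the filter of 1 CPM in at least 3 of the 6 libraries through the Jag1KO group alone, so that a gene let in this way had to differ, and these values are a description without a test. In all, 15 reads were counted in Jag1WT and 62 in Jag1KO. In the other 2 pairs PDGFB was below the filter. In Jag1KO + ctrl PDGFB was at 1.20, 0.479 and 1.56 CPM against 0.613, 0.495 and 0.645 CPM in Jag1KO + rescue, and in siJag1 it was at 0.964, 0.433 and 0.699 CPM against 0.424, 0.270 and 0.685 CPM in siCtrl. The groups of these pairs overlapped.

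EDN1 (chr6:12290361-12297194, plus strand) was the only ligand that passed the call in a pair. It was at 10.9, 16.0 and 14.9 CPM in Jag1WT and at 26.6, 40.9 and 35.0 CPM in Jag1KO, so that every knockout library lay above every parental one. The log2 fold change of Jag1WT against Jag1KO was −1.30 (standard error 0.217, adjusted p = 0.0457, edgeR), that is, EDN1 in Jag1WT was at 40.8% of its level in Jag1KO. Of the 12879 genes tested in this pair, 92 (0.714%) were called, 39 of them (0.303%) lower in Jag1WT, and EDN1 was 1 of the 9 ligands tested. The call was close to the threshold in this fit. DESeq2 (adjusted p = 6.72e-06) and limma (adjusted p = 0.0428) called EDN1 as well. So did edgeR with DESeq2 size factors, without the filter and with the replicate block (adjusted p = 0.0443, 0.00763 and 0.00179). Of the 6 fits without 1 library, the one without Jag1KO replicate 1 kept it (log2 fold change −1.46, adjusted p = 0.00257, edgeR), and the other 5 lost it, with log2 fold changes of −1.14 to −1.41 and adjusted p of 0.139 to 0.243. The fit of all 18 libraries lost it as well (adjusted p = 0.124, edgeR). In the 5 fits without 1 library that lost it, 8 to 21 genes in all were called, against 92 in the full pair. In bulk libraries, fewer cells that make a transcript and less transcript per cell cannot be told apart.

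The EDN1 level was also high with the rescue plasmid. It was at 23.4, 59.0 and 36.8 CPM in Jag1KO + rescue and at 26.1, 22.9 and 39.0 CPM in Jag1KO + ctrl, groups that overlapped (log2 fold change 0.43, 95% interval −0.38 to 1.25, adjusted p = 0.404, edgeR). In siCtrl EDN1 was at 9.05, 15.8 and 15.3 CPM and in siJag1 at 15.6, 13.8 and 28.7 CPM (log2 fold change −0.52, −1.27 to 0.22, adjusted p = 0.970, edgeR). All 9 knockout-derived libraries lay between 22.9 and 59.0 CPM and the 9 parental-derived ones between 9.05 and 28.7 CPM, where siJag1 replicate 3 was the one parental-derived library above 22.9. The difference between the knockout and the rescue pair was −1.71 on the log2 scale (standard error 0.452, adjusted p = 0.0797, edgeR), which missed the threshold of 0.05. It passed with DESeq2 (adjusted p = 0.00818) and without Jag1KO + ctrl replicate 3 (adjusted p = 0.0142, edgeR). Beside these values, all 6 targets of the coactivator YAP (CCN1, CCN2, ANKRD1, AMOTL2, AXL and AJUBA) lay lower in Jag1WT than in Jag1KO without overlap, as did 6.58% of all genes. Of all genes 0.714% passed the call, and of the 6 targets 0 did. Their median log2 fold change was −0.43, against −0.0089 over all genes. Their mean log2(CPM + 1) lay between 7.49 and 7.84 in Jag1WT, 8.06 and 8.46 in Jag1KO, 7.92 and 8.33 in Jag1KO + rescue and 7.88 and 8.28 in Jag1KO + ctrl. In siCtrl it lay between 7.56 and 7.86 and in siJag1 between 7.68 and 8.19, where siJag1 replicate 2 had the 8.19 and an EDN1 level of 13.8 CPM, within the range of Jag1WT. The part of YAP in the EDN1 values was not tested.

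**Figure D3:**
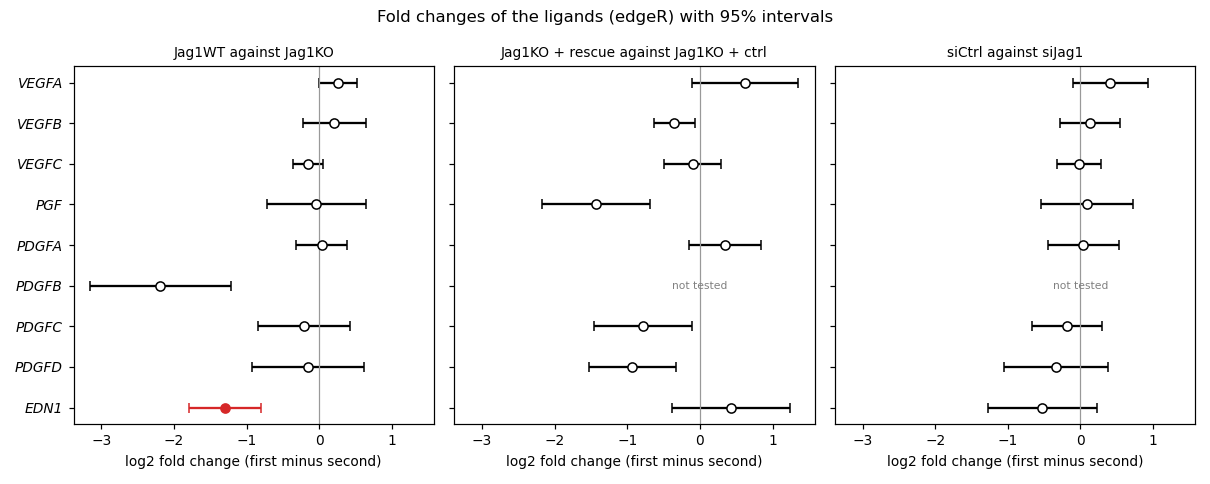
Log2 fold changes of 9 ligands with 95% intervals (edgeR) in the 3 pairs, where positive values go with more JAG1. The filled red marker is the one call, EDN1 at −1.30 in Jag1WT against Jag1KO. PDGFB, shown in that pair alone, passed the filter only through Jag1KO, so its interval is not a test.

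The promoter of EDN1 is shown because it belongs to the one called ligand, and that of PGF because this gene stood apart in Jag1KO + ctrl. Both are 300-base windows from RefSeq, from 250 bases before to 50 after the start site (GRCh38.p14), at chr6:12290111-12290410 on the plus strand and at chr14:74955548-74955847 on the minus strand, written 5′ to 3′ on the strand of the gene. Capitals mark the hypoxia response element core ACGTG (read on the other strand as CACGT) in EDN1 and the SP1 motif GGGCGG (on the other strand CCGCCC) in PGF.
EDN1: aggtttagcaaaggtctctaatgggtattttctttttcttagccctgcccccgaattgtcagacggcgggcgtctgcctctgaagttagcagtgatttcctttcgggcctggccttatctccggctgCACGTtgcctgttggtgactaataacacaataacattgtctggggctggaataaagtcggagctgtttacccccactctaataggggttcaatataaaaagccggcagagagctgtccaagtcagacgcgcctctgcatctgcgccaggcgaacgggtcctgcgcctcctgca
PGF: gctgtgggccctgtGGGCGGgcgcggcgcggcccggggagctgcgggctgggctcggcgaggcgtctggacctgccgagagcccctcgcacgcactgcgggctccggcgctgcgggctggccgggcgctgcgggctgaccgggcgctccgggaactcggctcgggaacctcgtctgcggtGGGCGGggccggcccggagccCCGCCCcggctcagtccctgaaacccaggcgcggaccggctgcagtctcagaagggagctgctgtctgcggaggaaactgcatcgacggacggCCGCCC
The core ACGTG was found, on either strand, in 21.4% of 35116 RefSeq promoter windows of this length and in 1 of the 7 ligands with a window, EDN1, at 123 bases before the start. GGGCGG was found in 45.0% of all windows and in 6 of the 7 ligands, all but EDN1. PGF holds 4 matches and VEGFB 9. The RBPJ motif GTGGGAA, which Notch signaling uses, stands in 6.25% of all windows, the AP-1 motif TGANTCA in 7.71% and the CRE motif TGACGTCA in 1.85%, and these letters were in none of the 7 windows. Matches are letters in a sequence and were not tied to any binding here. VEGFA, PDGFB and PDGFC had no window in this table.

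FGF2 (chr4:122826682-122898236, plus strand) had 0 reads in 12 libraries and 1 to 3 reads in the other 6, 10 reads in all. A count of 0 allows up to 3 reads, which is 0.162 to 0.287 CPM depending on the depth of a library. The libraries with reads reached at most 0.232 CPM (3 reads in Jag1KO replicate 2), and their upper limits lie above that for 0 reads. FGF2 mRNA was thus at or below the limit of detection in every group and was not tested. Of its 6801 exon bases, 804 overlap NUDT6 on the opposite strand, and whether the counting used strand is not given in the sources used here. The receptor FGFR1 was at 151 to 197 CPM in all libraries, with log2 fold changes of 0.023, 0.074 and 0.052 in the 3 pairs.

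Taking the ligands as a list without PDGFB, 3 of the other 8 had a positive and 5 a negative log2 fold change in Jag1WT against Jag1KO (median −0.097 against −0.0089 over all genes), and EDN1 had an unadjusted p below 0.05, as had 8.81% of all genes (edgeR). VEGFA lay higher in Jag1WT with no overlap of the groups, as did 7.24% of all genes, and VEGFC and EDN1 lay lower with no overlap, as did 6.58%. In Jag1KO + rescue against Jag1KO + ctrl the median of the 8 tested was −0.22 against −0.0024 over all genes. There 5 of the 8 had groups that did not overlap, VEGFA higher with more JAG1 (so were 16.5% of all genes) and VEGFB, PGF, PDGFC and PDGFD lower (so were 16.0%). In this pair 0 ligands were called, and 1 of 12850 genes was called (0.00778%) although 3954 (30.8%) had an unadjusted p below 0.05. Of the ligands, PGF, PDGFD, VEGFB and PDGFC had an unadjusted p below 0.05 (edgeR), and DESeq2 called 2. In siCtrl against siJag1 the median of 8 was 0.0084 against −0.0073 over all genes, VEGFA alone had groups that did not overlap (5.15% of all genes had such groups with more in siCtrl), and 0 ligands were called among 2 genes called (0.0157%), with 0 ligands at an unadjusted p below 0.05 (edgeR), against 3.83% of all genes, and 0 called by DESeq2. In the joint fit 57 of 12757 genes (0.447%) and 0 of 8 ligands were called. There VEGFA (log2 fold change 0.42), PDGFD (−0.49) and PDGFC (−0.40) had an unadjusted p below 0.05, as had 21.5% of all genes, with adjusted p of 0.156, 0.187 and 0.219 (edgeR), and DESeq2 called 0.

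In the 2 control comparisons, in which JAG1 was not changed on purpose, 0 ligands were called, among 0 of 12956 genes (0.0%) in Jag1KO + ctrl against Jag1KO and 0 of 12797 (0.0%) in siCtrl against Jag1WT. In Jag1KO + ctrl against Jag1KO, PGF was the 1 ligand of 9 with an unadjusted p below 0.05, which 5.81% of all genes had (edgeR). In siCtrl against Jag1WT 0 of 8 ligands had one, against 1.38% of all genes, and PGF had a log2 fold change of −0.71 (95% interval −1.43 to 0.0083, edgeR). DESeq2 called 0 ligands in either. These comparisons share libraries with the pairs above. Of the 3 differences between pairs, 0 ligands passed an adjusted p of 0.05 in any, against 71 of 12804 genes (0.555%) for knockout and rescue, 14 of 12765 (0.11%) for knockout and siRNA and 12 of 12761 (0.094%) for rescue and siRNA. For PGF the difference between rescue and siRNA was −1.53 on the log2 scale (adjusted p = 0.123, edgeR), which passed with DESeq2 (adjusted p = 0.0398) and without Jag1KO + ctrl replicate 3 (adjusted p = 0.0190, edgeR).

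Of 15 receptors of these ligands, 8 were tested in each pair and 0 were called. The shares of all genes called were 0.714%, 0.00778% and 0.0157% in the knockout, rescue and siRNA pair, so 0 of 8 says little. KDR, the main signaling receptor for VEGFA, was at 8.27, 6.54 and 5.74 CPM in Jag1WT and at 13.8, 9.58 and 12.9 CPM in Jag1KO (log2 fold change −0.82, unadjusted p = 0.00504, adjusted p = 0.238, edgeR). In siCtrl against siJag1 its log2 fold change was −0.78 (unadjusted p = 0.0147, adjusted p = 0.970, edgeR), and in the rescue pair 0.65 (unadjusted p = 0.128, edgeR). The endothelin receptor EDNRA was at 9.95 ± 0.545 CPM in Jag1WT against 6.53 ± 1.03 in Jag1KO and at 9.96 ± 1.00 CPM in siCtrl against 6.67 ± 0.811 in siJag1, without overlap in either pair (log2 fold changes 0.61 and 0.59, unadjusted p = 0.0117 and 0.0107, adjusted p = 0.355 and 0.970, edgeR). It was at 6.24 ± 1.15 CPM in Jag1KO + rescue and 7.60 ± 2.25 CPM in Jag1KO + ctrl. Each knockout-derived group thus had a lower mean of EDNRA and a higher mean of EDN1 than Jag1WT. The same held for the parental-derived siJag1, with a mean EDN1 of 19.4 CPM against 13.9 CPM in Jag1WT. NRP1 was at 1339, 1849 and 1422 CPM in Jag1KO + rescue and at 683, 641 and 1375 CPM in Jag1KO + ctrl (log2 fold change 0.77, unadjusted p = 0.0451, adjusted p = 0.155, edgeR), and there the 2 libraries low in NRP1 were those low in VEGFA.

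Of 13 genes for enzymes and binding proteins that process these ligands, 9, 8 and 9 were tested in the knockout, rescue and siRNA pair, and 0 were called. The shares of all genes called in these pairs were 0.714%, 0.00778% and 0.0157%. ECE1, the protease that cuts big endothelin-1 to its active form, was at 346, 357 and 373 CPM in Jag1WT and 299, 212 and 212 CPM in Jag1KO. It was at 311, 234 and 275 CPM in Jag1KO + rescue and 158, 140 and 282 CPM in Jag1KO + ctrl, and at 362, 365 and 369 CPM in siCtrl and 318, 209 and 303 CPM in siJag1. ECE1 thus lay higher with more JAG1 in the knockout and siRNA pairs without overlap, and the joint log2 fold change was 0.48 (adjusted p = 0.0787, edgeR). FURIN, a convertase that cuts VEGFC and PDGF precursors, had a joint log2 fold change of 0.41 (adjusted p = 0.135, edgeR), and PLAT, which can activate PDGFC, one of −0.36 (adjusted p = 0.237, edgeR). Of 12 related ligands, 4, 5 and 3 were tested and 0 called, beside the same shares of all genes. Among them FGF5 was at 28.9 ± 4.61 CPM in Jag1WT and 52.0 ± 21.1 CPM in Jag1KO, 25.8 ± 8.59 CPM in Jag1KO + rescue and 51.1 ± 15.9 CPM in Jag1KO + ctrl, and 27.4 ± 4.55 CPM in siCtrl and 44.8 ± 17.6 CPM in siJag1, with a joint log2 fold change of −0.86 (adjusted p = 0.0545, edgeR). FGF5, like FGF2 a fibroblast growth factor, thus had a lower mean with more JAG1 in each pair and missed the threshold, and its groups overlapped in the knockout and rescue pairs.

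Other lists gave few calls in the pairs, where 0.714% (knockout), 0.00778% (rescue) and 0.0157% (siRNA) of all genes were called. In the joint fit 0.447% of all genes were. Of the Notch targets, HES1 was called in the joint fit (log2 fold change 2.70, adjusted p = 0.00232, edgeR), and its log2 fold change in Jag1WT against Jag1KO was 2.99 (adjusted p = 0.0530, edgeR). All 10 cell cycle genes had a negative log2 fold change in each pair, with medians of −1.26, −1.69 and −0.69 in the knockout, rescue and siRNA pair. In the joint fit their median was −1.19, and all 10 had an unadjusted p below 0.05, as had 21.5% of all genes, and 0 were called (edgeR). In the pairs, MCM2 was called lower in Jag1WT than in Jag1KO (log2 fold change −0.78, adjusted p = 0.0442, edgeR), and of 5 mural markers CSPG4 was (6.49 ± 0.194 against 14.3 ± 0.523 CPM, log2 fold change −1.14, adjusted p = 0.0202, edgeR). The summed level of the mural list was 13.6 to 26.7 CPM and DES had 0 to 2 reads. Of 20 hypoxia targets, 0 were called, with 15, 2 and 18 positive log2 fold changes in the knockout, rescue and siRNA pair, and of 10 ATF4 targets 0 were called, with 5, 10 and 9 positive.

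**Figure D4:**
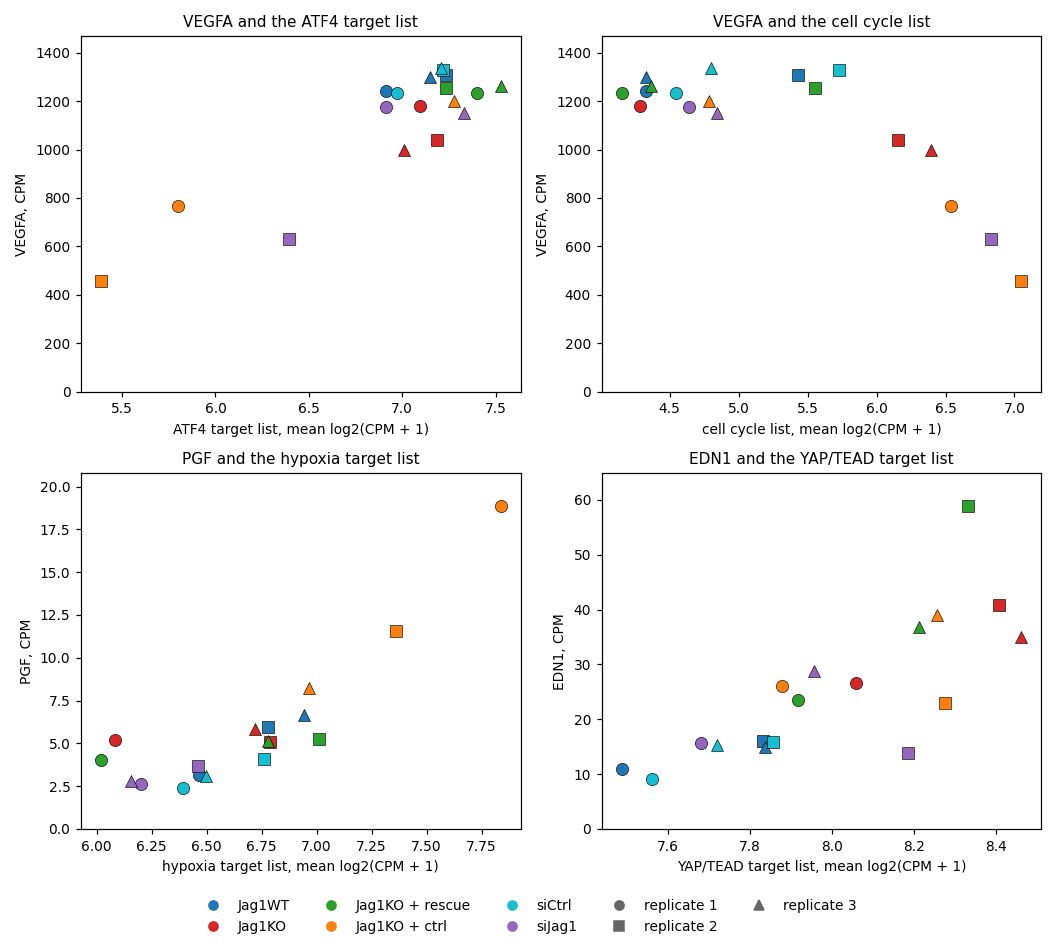
CPM of VEGFA, PGF and EDN1 in each of the 18 libraries (y axis) against the mean log2(CPM + 1) of a gene list in the same library (x axis), with groups as colors and replicates as shapes. The 3 libraries lowest in VEGFA are highest in the cell cycle list and lowest in the ATF4 target list, the 2 libraries highest in PGF are highest in the hypoxia target list, and most knockout-derived libraries lie to the upper right for EDN1 and the YAP/TEAD target list, where siJag1 replicate 2 lies to the right with 13.8 CPM of EDN1.

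Across the 18 libraries, the genes most like each ligand were sought by Pearson correlation of log2(CPM + 1) among 12757 genes above 1 CPM in at least 9 libraries. These values describe libraries that share cell origin and growth state. Genes most like VEGFA included SAT1 (r = 0.969) and HEY1 (0.960). HEY1, a transcriptional repressor of the Notch target family, was at 5.40, 2.76 and 9.21 CPM in Jag1KO + ctrl, at 7.43, 4.00 and 6.85 CPM in siJag1, and at 6.31 to 8.79 CPM in the other 12 libraries, and so was lowest in the 3 libraries lowest in VEGFA. VEGFC was most like ADM (0.894), the gene of the vasodilator adrenomedullin, APP (0.873) and FBXO34 (0.825). PGF was most like CERCAM and DYRK1B (both 0.912) and CD24 (0.898), and VEGFB like TNK2 (0.879), CTDSP1 (0.878) and CRAT (0.874). PDGFA was most like TOB2 (0.956), ZNF746 (0.941) and FLJ42627 (0.933), PDGFC like TM4SF1 (0.971), MIR5047 (0.957) and LXN (0.956), and PDGFD like FKBP7 (0.950), GALNT18 (0.925) and MAGI1 (0.914). EDN1 was most like FST (0.934), the gene of the activin-binding protein follistatin, NDUFV2 (0.921) and TNIP3 (0.918). The lists of the 8 ligands had no gene in common, and PDGFB and FGF2 were too low to be compared.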

How the data were processed

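Per the labels and the study's methods, the authors prepared stranded poly(A) libraries, aligned the reads to hg38, counted uniquely mapped reads per gene (featureCounts) and scaled them with TMM (edgeR 3.28.0, R 3.6.1). The aligner is not given in the sources used here. The deposited counts of 21411 genes are raw whole numbers, and 292 genes without a symbol, at most 0.0442% of a library, were left out of the tests. The deposited CPM signal is the authors' count divided by the TMM-scaled library size. The RPKM deposited by the authors served for gene lengths, and 3 of their columns, whose names fit no sample, were set aside.

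The counts were tested with the quasi-likelihood test of edgeR 4.0.16 (TMM, R 4.3.3) on the 6 libraries of a pair, over genes with more than 1 CPM in 3 or more of these. A call needs a Benjamini-Hochberg adjusted p below 0.05 over all genes tested and a fold above 1.5, and for differences between pairs (12 libraries, above 1 CPM in 6) the adjusted p alone. The joint fit used 18 libraries with the pair as a term. The authors used ROTS, which was not run. Standard errors are the log2 fold change over the root of F. On simulated data for Jag1WT against Jag1KO with 12795 genes, edgeR recovered 193 of 200 changed genes with 11 false calls. The changed genes were better expressed ones with larger folds than most ligands had. All genes had the same dispersion, and the libraries did not differ in growth state. The simulation therefore does not show how well differences like those of most ligands would be found.

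Alternatives were DESeq2 1.42.0, its size factors, limma 3.58.1 on log2(CPM + 1), no filter, all 18 libraries, the replicate number as a block and each library left out. The replicate numbers were taken to pair siCtrl with siJag1 (correlations of deviations 0.543, 0.522 and 0.264) and with Jag1WT (0.595, 0.713 and 0.210). The main tests did not use this pairing. With the block, 1020 genes of siCtrl against siJag1 had an unadjusted p below 0.05, against 489 without it (edgeR). For siCtrl against Jag1WT these were 1222 and 176 genes, and 0 ligands were called in either comparison with the block. The variance between replicates was 7.37 to 107 times the variance of counting noise in the 18 pairs within groups, so none was a copy.

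The named genes were the 10 ligands and JAG1, up to 4 called genes per list and comparison, and the 3 genes most like each ligand, of which 1 is not reported here; the other list genes named had a low unadjusted p or complete a description and were chosen after their values were seen. Members and lists were chosen with earlier results of these data known. The ligand EDN3 and a few other list genes were not analysed here. Positions are from GENCODE 44 (hg38). Limits on counts cover counting error only. The intervals of fold changes come from the edgeR fits and include the spread between replicate cultures.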

Additional observations from a re-analysis of the deposited data

How the results depend on the processing

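Of 150 fold changes of ligands recomputed in the 3 pairs under 6 alternatives, 143 kept their direction and side of the threshold, and the others are PGF and PDGFD in the rescue pair, EDN1 and PDGFB. By replicate number, the deviations of Jag1WT and Jag1KO correlated at 0.632, 0.667 and −0.0137, so replicate 3 alone showed no pairing. The replicate block called EDN1 there. PDGFB also fell under the threshold, but it passed the filter only through Jag1KO, so this is no test of it. Leaving PDGFB aside, the number of ligands called in Jag1WT against Jag1KO (1, EDN1) was thus 1 with the block and 0 to 1 with 1 library left out. In the rescue pair (0) it was 2 by DESeq2, 2 in the fit of all 18 libraries (PGF and PDGFD both times) and 0 to 3 with 1 library left out, 3 without Jag1KO + ctrl replicate 3. In Jag1KO + ctrl against Jag1KO it was 0 to 1. For the difference between knockout and rescue it was 1 by DESeq2 (EDN1) and 0 to 2 with 1 library left out, and for rescue and siRNA 1 (PGF) by DESeq2 and 0 to 1. Apart from PDGFB, the block changed no count of called ligands. The cause of these shifts was not tested. Called genes of the rescue pair numbered 1 by edgeR and 1583 by DESeq2, and of Jag1WT against Jag1KO 92 and 235. Leaving out 1 library turned the sign of uncalled values: in Jag1WT against Jag1KO PGF (−0.26 to 0.23), PDGFA (−0.031 to 0.15), PDGFC (−0.50 to 0.052) and PDGFD (−0.48 to 0.098), in the rescue pair VEGFC (−0.25 to 0.045), and in the siRNA pair VEGFB (−0.035 to 0.27), VEGFC (−0.14 to 0.077), PGF (−0.12 to 0.27), PDGFA (−0.17 to 0.20) and PDGFC (−0.36 to 0.042). In the joint fit VEGFB, at −0.010, was 0.0076 by limma, 0.0076 as the mean difference in log2(CPM + 1) within the pairs, and −0.071 to 0.031 with 1 library left out. Without Jag1KO replicate 1, Jag1KO + ctrl replicate 3 and siJag1 replicate 2, each farthest from the others of its group in cell cycle level, the joint fit called 0 of 8 ligands; this was chosen after seeing the data, and in the first 2 groups it left out the library with the lowest cell cycle level. Depth limits PDGFB and FGF2.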
